A study of Mus musculus with 6 samples.

Results

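The 10 peptide genes named for neuron types of the hypothalamus, Hcrt, Pmch, Oxt, Avp, Trh, Crh, Npy, Gal, Sst and Nts, were read out in midbrain RNA of a mouse line made for translating ribosome affinity purification (TRAP). They were picked by gene symbol as peptides of hypothalamic neurons, and all 10 were among the 32531 gene entries of each count table. Every library came from adult control mice without treatment that carried the Lhx5-EGFP-Rpl10a transgene of line DT154. Lhx5 regulatory sequences drive a fusion of EGFP with Rpl10a, a protein of the large ribosomal subunit, so polysomes of tagged cells can be pulled from a homogenate of the dissected midbrain with antibodies against EGFP. The 3 IP libraries hold the RNA that was pulled down and the 3 input libraries the RNA it is set against, which a second label calls unbound. The labels give neither the sex nor the number of animals behind a library, and nothing says that replicates came from separate mice. The p-values therefore measure the spread between these libraries, which may be technical. The comparison asks which of these peptide messages sit on the ribosomes of Lhx5-tagged cells relative to the dissected tissue.

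Neuropeptides are cut from longer precursors in the secretory pathway, packed in dense-core granules and released to act on G protein-coupled receptors, often far from the release site. Hcrt encodes the precursor of the orexins, and Pmch that of melanin-concentrating hormone. They mark separate populations of the lateral hypothalamus that project widely, the midbrain included. Oxt and Avp encode oxytocin and vasopressin and are made above all by magnocellular neurons of the paraventricular and supraoptic nuclei. Trh and Crh encode the releasing hormones of the thyroid and stress axes, while Npy, Gal, Sst and Nts encode neuropeptide Y, galanin, somatostatin and neurotensin, which are also made by many neurons outside the hypothalamus.

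Oxt and Avp lie tail to tail on chromosome 2 with 3565 bp between them (GENCODE M21, GRCm38). Hcrt spans positions 100761069 to 100762931 of chromosome 11 on the minus strand, and Pmch positions 88091072 to 88092375 of chromosome 10 on the plus strand. Pmch is the only one of the 10 whose exons overlap those of another gene, with 435 of 749 exon bases shared with Parpbp on the opposite strand. The strand setting of the counting is not given in the sources used here, so reads of the shared bases cannot be assigned with certainty. Parpbp itself had 48, 38 and 19 counts in IP replicates 1, 2 and 3, against 45, 65 and 41 in input. RefSeq lists a start site for 9 of the 10 genes. The 100 bases before it are shown for the peptides with the largest differences and for Sst, the only one called higher in IP (5′ to 3′, RefSeq, GRCm38.p6), with capitals for the TATA box letters TATAAA or the cAMP response element letters TGACGTCA. The windows are chr11:100762932-100763031 (minus strand) for Hcrt, chr10:88090972-88091071 (plus) for Pmch, chr2:130576069-130576168 (plus) for Oxt, chr2:130582589-130582688 (minus) for Avp and chr16:23890845-23890944 (minus) for Sst.
Hcrt: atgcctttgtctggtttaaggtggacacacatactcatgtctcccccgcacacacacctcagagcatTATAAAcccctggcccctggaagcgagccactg
Pmch: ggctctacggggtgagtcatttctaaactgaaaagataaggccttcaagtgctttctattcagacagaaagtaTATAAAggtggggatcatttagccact
Oxt: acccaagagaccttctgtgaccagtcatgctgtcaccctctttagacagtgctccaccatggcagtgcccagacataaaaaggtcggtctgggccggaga
Avp: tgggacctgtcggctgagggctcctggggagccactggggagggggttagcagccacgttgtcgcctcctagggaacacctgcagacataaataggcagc
Sst: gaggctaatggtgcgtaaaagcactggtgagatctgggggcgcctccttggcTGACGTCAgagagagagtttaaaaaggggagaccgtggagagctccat
Searched on both strands, TATAAA was found in 2 of the 9 windows, starting 33 bases before the start of Hcrt and 27 bases before that of Pmch, and in 5.56% of 32851 RefSeq promoter windows of this length. TGACGTCA was found in Sst alone, starting 48 bases before its start, and in 1.15% of all windows. No window held both, and a match describes letters only.

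Library depth was 38058239 to 45841499 counts in genes, at which 3 counts correspond to 0.0688 to 0.0741 CPM (read counts relative to library size, the usual CPM unit with TMM scaling). Input replicate 3 stood apart. The summed level of 10 midbrain markers was 41.9 CPM there, against 94.98 and 86.9 CPM in input replicates 1 and 2 and 120 to 140 CPM in IP. Pax7, a dorsal midbrain factor, had 0.0987 CPM in input replicate 3 and 6.66 and 6.69 CPM in the other inputs. The sum of 8 striatal markers was 1313 CPM in that library, against 290 and 159 CPM in input replicates 1 and 2 and 163 to 166 CPM in IP. IP replicate 2 held 1088 CPM of 6 cerebellar genes, listed mainly for Purkinje cells, against 285 to 353 CPM in the other IP libraries and 242 to 326 CPM in input. Results of the 10 peptide genes are therefore given with and without input replicate 3, and where it matters without both libraries numbered 3. For the other genes only some of these fits are given.

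Hcrt, Oxt and Avp fell steeply in IP, to 35 counts or fewer in each IP library, and Oxt to 6 or fewer. All 10 genes passed the low-count filter, and 4 of them were called lower in IP (Hcrt, Oxt, Avp and Gal) and 1 higher (Sst) (quasi-likelihood test of edgeR, Benjamini-Hochberg adjustment over all genes). Over all 17197 genes tested, 27.9% were called lower and 26.0% higher, or 53.9% in either direction, and the 10 genes with 5 calls lie near that background. Hcrt, Pmch, Oxt, Avp and Crh passed the filter through the input libraries, since fewer than 3 IP libraries reached its cutoff of 0.243 CPM. In bulk RNA of this kind, fewer cells of a type and less RNA per cell cannot be told apart.

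**Figure D1:**
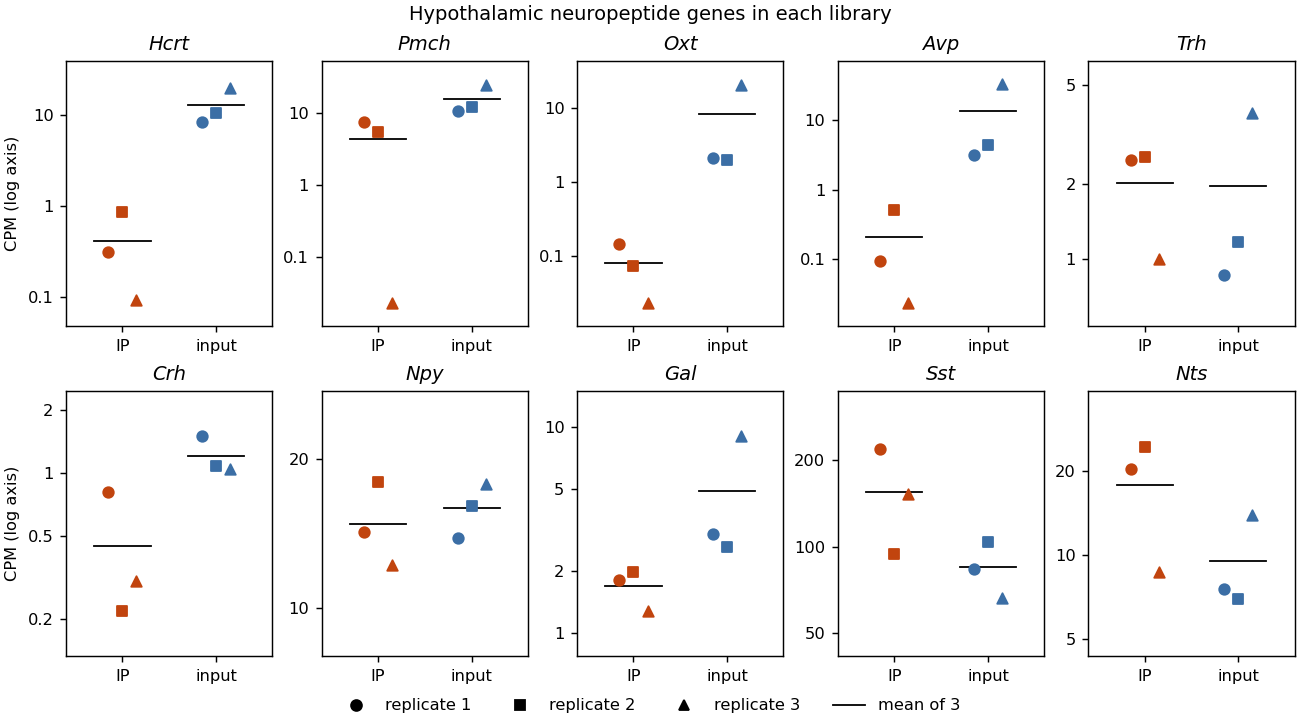
Level of each peptide gene in every library, in CPM on a log axis. Points are single libraries, with a marker shape per replicate number, and lines are means of 3 libraries. For Hcrt, Pmch, Oxt, Avp, Crh and Gal all 3 IP libraries sit below all 3 input libraries, and for Trh, Npy, Sst and Nts the groups overlap.

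Hcrt, the orexin gene, had 0.311, 0.855 and 0.0933 CPM in IP replicates 1, 2 and 3, against 8.53, 10.6 and 20.2 CPM in input. These levels rest on 13, 35 and 4 counts in IP and 355, 462 and 819 counts in input. Every IP library lay below every input library, and within same-numbered pairs the IP level was 3.64%, 8.07% and 0.462% of the input level. Hcrt averaged 0.420 ± 0.392 CPM in IP and 13.1 ± 6.24 CPM in input (SD, n = 3 each), and the fitted log2 fold change was -4.97 (SE 0.65, adjusted p 0.000433 by edgeR). The fall was -4.52 without input replicate 3, -4.03 without both libraries numbered 3 and -6.03 without IP replicate 2, and Hcrt was called lower under each of the 19 alternatives run.

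Oxt, the oxytocin gene, had 0.143, 0.0733 and 0.0233 CPM in IP replicates 1, 2 and 3, against 2.07, 1.99 and 20.3 CPM in input. Only 6, 3 and 1 reads lie behind the IP values, against 86, 87 and 821 in input, and the exact Poisson interval of the single read in IP replicate 3 runs from 0.000591 to 0.130 CPM (95%, counting error only). The groups did not overlap, although input replicate 3 stood 10.2-fold above the lowest input. The log2 fold change was -6.62 (SE 1.21, adjusted p 0.00209 by edgeR). It was -4.64 without input replicate 3 and -7.30 without IP replicate 1.

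Avp, the vasopressin gene next to Oxt, had 0.0956, 0.513 and 0.0233 CPM in IP replicates 1, 2 and 3, against 3.20, 4.33 and 32.8 CPM in input. In counts these were 4, 21 and 1 in IP and 133, 189 and 1328 in input. As for Oxt, the groups did not overlap and input replicate 3 was highest, at 10.3-fold the lowest input. Its log2 fold change was -5.99 (SE 1.21, adjusted p 0.00359 by edgeR), and -4.15 without input replicate 3 and -7.77 without IP replicate 2. Oxt and Avp lost the call in limma-voom alone, at adjusted p of 0.0507 and 0.0752.

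Pmch, the melanin-concentrating hormone gene, stayed closer to its input level than Hcrt in IP replicates 1 and 2. It had 7.62, 5.49 and 0.0233 CPM in IP replicates 1, 2 and 3, against 10.6, 12.2 and 24.7 CPM in input. IP replicate 3 held 1 read of Pmch and the other IP libraries 319 and 225, while the inputs held 443, 530 and 1001. So the IP level was 71.6% and 45.2% of the input level in pairs 1 and 2, while the single read in IP replicate 3 has a 95% exact Poisson interval of 0.000591 to 0.130 CPM. The log2 fold change was -1.85 (SE 1.05), and with this spread it was not called (adjusted p 0.171 by edgeR). In limma-voom it was -3.74 (adjusted p 0.0685). Leaving out input replicate 3 gave -1.39 without a call (adjusted p 0.405 by edgeR). Leaving out IP replicate 3 gave -1.26 with a call (adjusted p 0.0301), and leaving out both libraries numbered 3 gave -0.80 (adjusted p 0.0124).

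Set against each other within a library, the lateral hypothalamic pair kept a near constant make-up in input. Pmch reads were 55.5%, 53.4% and 55.0% of Pmch and Hcrt reads together in input replicates 1, 2 and 3, with 95% exact binomial intervals that overlap (lowest bound 50.3%, highest 59.0%). In IP replicates 1 and 2 the Pmch share was 96.1% (interval 93.4 to 97.9) and 86.5% (81.8 to 90.4), above all 3 inputs. IP replicate 3 had 5 reads of the pair in all, and its share of 20.0% has an interval of 0.505 to 71.6%. Avp reads were 60.7%, 68.5% and 61.8% of Avp and Oxt reads in input, also with overlapping intervals, although input replicate 3 had far more reads of the pair. The IP shares of Avp were 40.0% (12.2 to 73.8) and 87.5% (67.6 to 97.3) in replicates 1 and 2, and IP replicate 3 had 1 read of each gene.

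**Figure D2:**
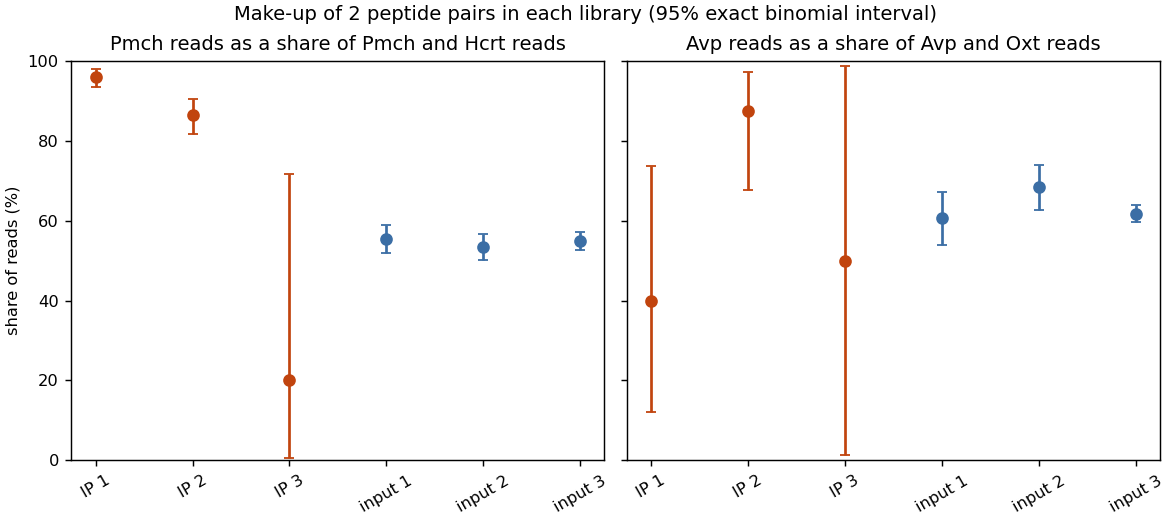
Share of Pmch in the reads of Pmch and Hcrt (left) and of Avp in the reads of Avp and Oxt (right), in percent, for each IP and input library. Bars are 95% exact binomial intervals, which cover counting error only. The Pmch share lies between 53.4% and 55.5% in the inputs and at 96.1% and 86.5% in IP replicates 1 and 2.

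Gal, the galanin gene, had 1.82, 1.98 and 1.28 CPM in IP, against 3.05, 2.61 and 9.11 CPM in input. The groups did not overlap, but input replicate 3 stood 3.49-fold above the lowest input. Its log2 fold change was -1.54 (SE 0.50, adjusted p 0.0281 by edgeR). The call rested on single libraries and the pairing: it was -0.76 (adjusted p 0.117) without input replicate 3 and -1.30 (adjusted p 0.0657) with the replicate number as a block. It was also lost without any 1 of the IP libraries, at adjusted p of 0.0627 to 0.0838.

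Crh, the corticotropin-releasing hormone gene, was scarce throughout, with 0.813, 0.2198 and 0.303 CPM in IP, against 1.49, 1.08 and 1.04 CPM in input. The groups did not overlap, and input replicate 3 was the lowest input for this gene. The log2 fold change of -1.43 (SE 0.58) missed the threshold (adjusted p 0.0655 by edgeR), as it did without input replicate 3 (-1.55, adjusted p 0.0922). It passed in 6 of its 18 alternatives: the replicate block (-1.61, adjusted p 0.0468), upper-quartile scaling and library totals (both adjusted p 0.0452), DESeq2 (adjusted p 0.0375), limma-voom (adjusted p 0.0300) and without IP replicate 1 (-2.17, adjusted p 0.0146). In all, 6 of the 10 genes had every IP library below every input library, an arrangement found for 32.8% of all tested genes. The reverse was found for 0 of 10, and for 30.7% of all tested genes. Of the 6, all but Gal passed the filter through the input libraries, which favours this arrangement, so the count is no result about the 10 genes.

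Sst, the somatostatin gene, was the most abundant of the 10 per kilobase of exon in both groups. It had 219, 94.2 and 152 CPM in IP replicates 1, 2 and 3, against 83.9, 104 and 66.2 CPM in input. The groups overlapped, because IP replicate 2 fell below input replicate 2. The log2 fold change was 0.87 (SE 0.29, adjusted p 0.0312 by edgeR). The replicate block ended the call (0.82, adjusted p 0.0961). So did leaving out IP replicate 1 (0.55, adjusted p 0.105), IP replicate 3 (adjusted p 0.0620), input replicate 1 (adjusted p 0.0800) or input replicate 3 (0.69, adjusted p 0.0964). Markers of cortical interneurons, a large source of somatostatin outside the hypothalamus, moved both ways. Of 6 tested, 1 was higher in IP (Pvalb) and 3 were lower (Lhx6, Vip and Htr3a), and none was at 0. Over all tested genes 26.0% were called higher and 27.9% lower. Lhx6 had 1.15, 1.20 and 0.467 CPM in IP and 6.51, 8.25 and 35.1 CPM in input (-4.15, adjusted p 0.00162 by edgeR). The 6 markers summed to 318 to 502 CPM in IP and 142 to 159 CPM in input. Pvalb made up most of the IP sum, at 280, 451 and 340 CPM in IP and 117, 103 and 62.7 CPM in input. The part of such cells in the Sst result was not tested.

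Nts, the neurotensin gene, had 20.4, 24.3 and 8.68 CPM in IP, against 7.57, 6.95 and 13.97 CPM in input. IP was higher in pairs 1 and 2, at 269% and 350% of the input level, and lower in pair 3, at 62.1%. The log2 fold change of 0.91 (SE 0.40) was not called with all libraries (adjusted p 0.0836 by edgeR). It passed without input replicate 3 (1.28, adjusted p 0.0381), without IP replicate 3 (1.25, adjusted p 0.0117) and without both (1.62, adjusted p 0.000146).

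Trh, the thyrotropin-releasing hormone gene, repeated that pattern at a lower level, with 2.51, 2.56 and 1.003 CPM in IP and 0.865, 1.17 and 3.88 CPM in input. Its level in IP was 290% and 219% of input in pairs 1 and 2 and 25.9% in pair 3. With all libraries the log2 fold change was 0.04 (SE 0.61, adjusted p 0.959 by edgeR). It was 0.98 without input replicate 3 (adjusted p 0.169) and 1.32 without both libraries numbered 3 (adjusted p 0.0257). Its sign turned with library totals or upper-quartile scaling and without any 1 of the other 4 libraries. Npy, the neuropeptide Y gene, varied least, with 14.2, 17.9 and 12.2 CPM in IP and 13.9, 16.1 and 17.8 CPM in input. Its log2 fold change was -0.10 (SE 0.18, adjusted p 0.651 by edgeR), with overlapping groups. It was -0.04 without input replicate 3 (adjusted p 0.908) and 0.03 without IP replicate 3.

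**Figure D3:**
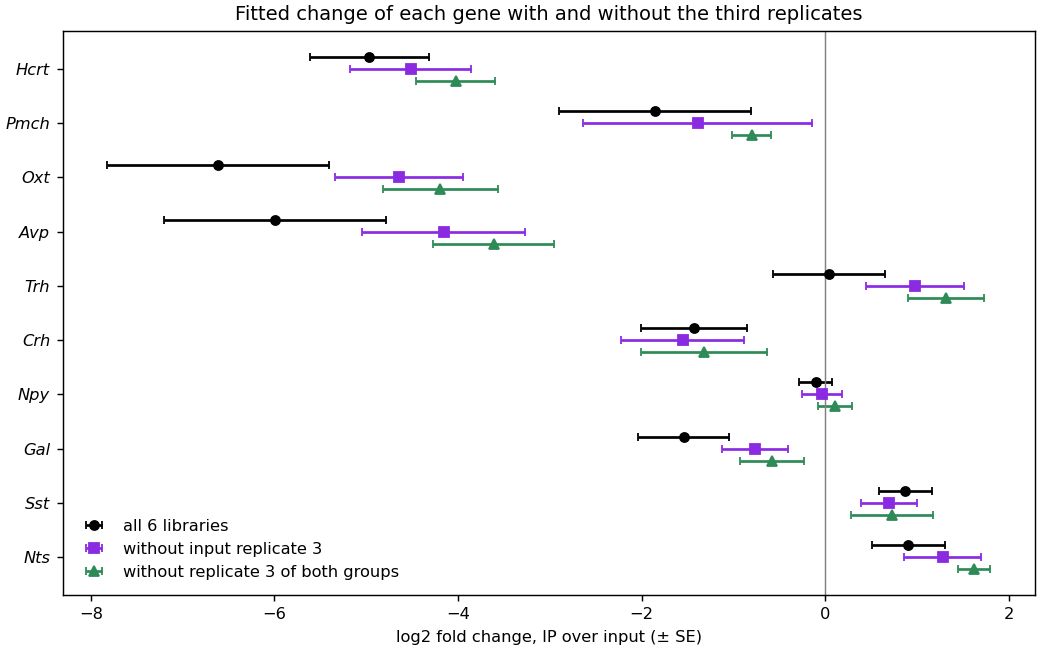
Log2 fold change (IP over input) of each peptide gene with its SE, for all 6 libraries, without input replicate 3 and without both libraries numbered 3. Hcrt, Oxt and Avp lie at or below -3.61 in all 3 fits, while Nts and Trh move upward when the third replicates are left out.

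The same 8 genes were lowest in IP replicate 3 and highest in input replicate 3: Hcrt, Pmch, Oxt, Avp, Trh, Npy, Gal and Nts. Crh and Sst were the exceptions, lowest in IP replicate 2 and in input replicate 3. Against the lowest input library, input replicate 3 stood at 10.2-fold for Oxt, 10.3-fold for Avp, 4.48-fold for Trh, 3.49-fold for Gal, 2.37-fold for Hcrt, 2.32-fold for Pmch, 2.01-fold for Nts and 1.28-fold for Npy. Some marker lists also set input replicate 3 apart. Cortical and hippocampal markers did not, at 1079 CPM there against 895 and 1272 CPM in input replicates 1 and 2. The 6 choroid plexus markers summed to 1745 CPM in input replicate 3, 690 and 239 CPM in input replicates 1 and 2 and 42.6 to 89.0 CPM in IP. Ttr, which encodes transthyretin, had 1266 CPM in input replicate 3. The 4 dopamine neuron markers summed to 61.8 CPM in input replicate 3, against 234 and 181 CPM in the other inputs and 32.2 to 48.3 CPM in IP. No striatal, choroid plexus or dopamine marker was at 0 in all libraries. The part of these cells in the peptide levels was not tested.

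**Figure D4:**
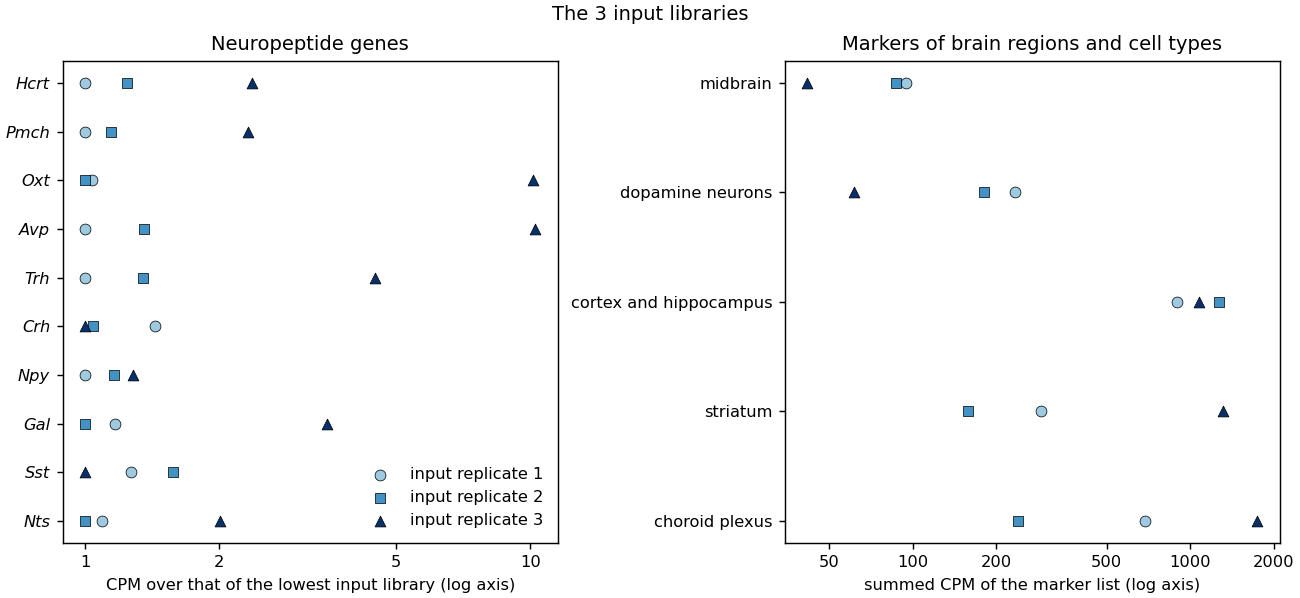
The 3 input libraries. Left, the CPM of each peptide gene over that of its lowest input library (log axis). Right, summed CPM of the marker lists for midbrain, dopamine neurons, cortex and hippocampus, striatum and choroid plexus (log axis). Input replicate 3 is highest for 8 of 10 peptide genes, for striatum (1313 CPM) and for choroid plexus (1745 CPM), and lowest for midbrain (41.9 CPM).

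Other genes of hypothalamic neurons were called in both directions. Of 21 such genes 11 were tested, with 3 higher in IP, 2 lower and 6 not called, a median log2 fold change of -0.44, beside 26.0% higher and 27.9% lower over all tested genes. Nkx2-1, a patterning factor of the ventral forebrain, had 66.5, 104 and 43.5 CPM in IP, against 3.44, 4.54 and 16.0 CPM in input (log2 fold change 3.16, SE 0.59, adjusted p 0.00253 by edgeR). Sim1 and Otp, factors required for neurons that make oxytocin, vasopressin and Trh, rose by 3.20 (SE 0.46, adjusted p 0.000715) and 3.48 (SE 0.52, adjusted p 0.000813). Sim1 had 27.1, 44.0 and 23.3 CPM in IP and 1.83, 2.32 and 6.15 CPM in input, so these factors and the Oxt and Avp messages lay on opposite sides of the comparison. The 3 rises were 4.15, 3.91 and 4.24 without input replicate 3.

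Lhx9, a LIM homeodomain gene of orexin neurons and of the thalamus and midbrain, fell by 3.05 on the log2 scale (SE 0.34, adjusted p 0.000207 by edgeR). It had 5.07, 2.12 and 3.36 CPM in IP, against 33.9, 33.5 and 19.9 CPM in input. Unlike Hcrt, Oxt, Avp and Gal, it was lowest among inputs in input replicate 3. Gnrh1, the gonadotropin-releasing hormone gene, had only 13, 1 and 1 counts in IP replicates 1, 2 and 3, against 22, 18 and 83 in input. Its log2 fold change was -3.03 (adjusted p 0.0370 by edgeR). The call was lost without IP replicate 2 (-2.57), without IP replicate 3 (-2.53), without input replicate 1 (-3.33) and without input replicate 3 (-1.98). Galp had no read in any library. The 21 genes summed to 85.8 to 160 CPM in IP and 47.0 to 66.7 CPM in input. Nkx2-1 and Sim1 made up most of each IP sum, and Lhx9 was the largest part of each input sum. The sums therefore do not describe the list as a whole, whose 11 tested genes had a median log2 fold change of -0.44.

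Of 26 receptor genes of the 10 peptides 22 were tested, with 5 higher in IP, 3 lower and 14 not called, and a median log2 fold change of 0.32. Over all tested genes 26.0% were called higher and 27.9% lower, so these counts are no result about the receptors as a group. Oxtr, the oxytocin receptor gene, had 15.8, 12.6 and 9.26 CPM in IP, against 3.39, 4.06 and 6.25 CPM in input, with groups that did not overlap. It rose by 1.46 (SE 0.29, adjusted p 0.00298 by edgeR) and was called higher under each of the 19 alternatives. Receptor and ligand thus differed in direction, Oxtr up and Oxt down in IP. Mchr1, the receptor gene of melanin-concentrating hormone, had 14.9, 16.9 and 10.01 CPM in IP and 8.49, 7.22 and 10.2 CPM in input, and its groups overlapped. Its rise was 0.69 (SE 0.23, adjusted p 0.0332).

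Crhr1, the main receptor gene for Crh in brain, had 12.1, 6.23 and 8.26 CPM in IP and 4.88, 5.41 and 1.70 CPM in input. It rose by 1.15 (SE 0.42, adjusted p 0.0477 by edgeR). The other genes called higher, named here to complete the count, were the orexin receptor gene Hcrtr1 (1.12, SE 0.40) and the galanin receptor gene Galr1 (1.40, SE 0.37). Without input replicate 3, Crhr1 stood at 0.76 (adjusted p 0.0669) and Hcrtr1 at 0.74 (adjusted p 0.0508), both past the threshold no longer. Mchr1 lost its call without either IP library numbered 1 or 2 (adjusted p 0.0833 and 0.140), without either input library of those numbers (adjusted p 0.0858 and 0.108) and with the replicate block (adjusted p 0.0535). Galr1 lost it without IP replicate 2 (1.06, adjusted p 0.0537). Crhr1 also lost it without any of the 3 IP libraries (adjusted p 0.154, 0.0642 and 0.0761) or without input replicate 1 (adjusted p 0.0683), and Hcrtr1 without any single library but input replicate 1. Of the receptor genes 1 to 6 were higher, depending on which libraries were left out, and 2 with upper-quartile scaling.

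Ntsr2, a neurotensin receptor gene known from astrocytes, fell by 3.33 on the log2 scale (SE 0.22, adjusted p 2.13e-05 by edgeR). It had 6.07, 4.66 and 4.92 CPM in IP, against 60.6, 59.4 and 38.0 CPM in input, a gap far beyond the spread in either group. Its relative Ntsr1, the neuronal receptor, had 13.0, 9.28 and 5.18 CPM in IP and 4.23, 6.72 and 3.58 CPM in input, and was not called (0.92, SE 0.36, adjusted p 0.0607). Npy2r, a presynaptic receptor gene for neuropeptide Y, fell by 0.79 (SE 0.22, adjusted p 0.0150), and Trhr2, a receptor gene for Trh, by 1.42 (SE 0.42, adjusted p 0.0190). Npy2r lost its call without input replicate 2 (-0.65, adjusted p 0.0652) and Trhr2 without input replicate 1 (-1.28, adjusted p 0.0770). Trhr2 also lost it without both libraries numbered 3 (-1.23, adjusted p 0.0516 by edgeR). The vasopressin receptor genes Avpr1b and Avpr2 were too low to test, with at most 0.192 CPM in any library.

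**Figure D5:**
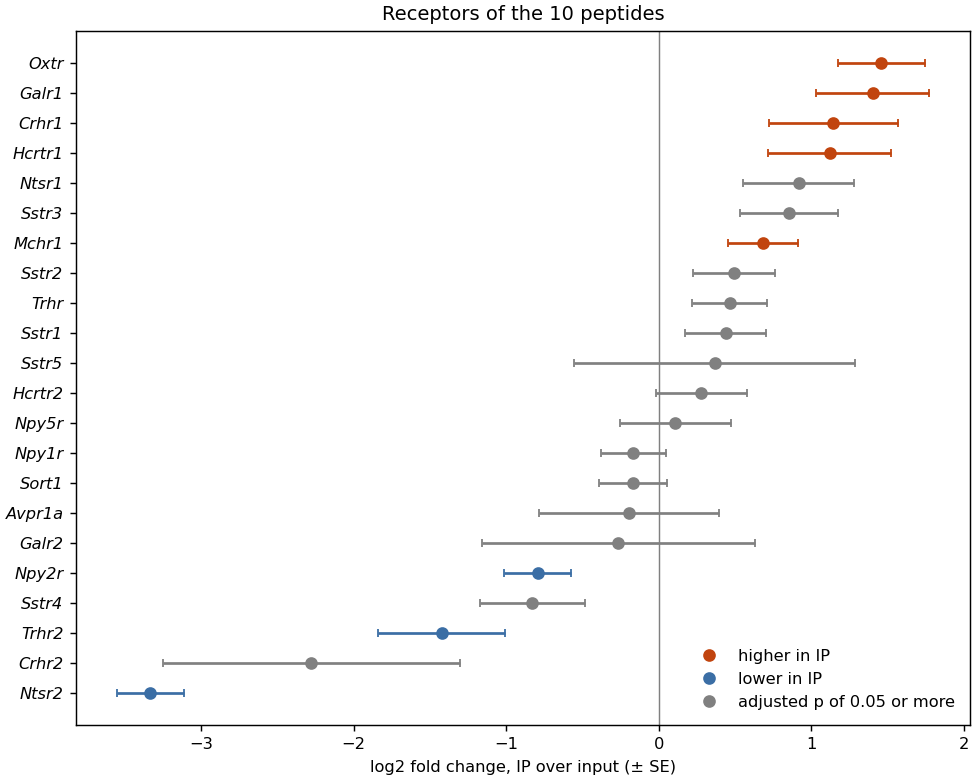
Log2 fold change (IP over input) with its SE for the 22 receptor genes tested, ordered by value. Colour marks the call by edgeR at an adjusted p under 0.05. Oxtr is at the top at 1.46 and Ntsr2 at the bottom at -3.33.

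Of 15 genes that process peptides or build their granules 4 were higher and 0 lower in IP by edgeR, with 0 lower at an unadjusted p under 0.05 and 0 lower by DESeq2, and their median log2 fold change was 0.49. The share called higher was near the 26.0% of all tested genes, of which 27.9% were called lower. Pcsk1n, the proSAAS gene of an inhibitor of prohormone convertase 1, had 416, 403 and 310.0 CPM in IP and 139, 145 and 97.0 CPM in input (1.57, SE 0.18, adjusted p 0.000252). Cadps, which primes dense-core granules for release, rose by 0.61 (SE 0.11, adjusted p 0.00169), and Scg5, the chaperone of prohormone convertase 2, by 0.91 (SE 0.32, adjusted p 0.0375). The remaining call, named to complete the count, was Pam, the peptide amidation enzyme (1.09, SE 0.34). With the replicate block 9 were higher, without IP replicate 3 the count was 8, and it was 2 without any of IP replicates 1 and 2 and input replicates 2 and 3. Scg5 and Pam lost their calls without each of those 4 libraries, with adjusted p of 0.0778 to 0.129 for Scg5 and 0.0537 to 0.108 for Pam.

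Among 8 genes that bind or break down these peptides, 1 was higher, 2 were lower and 5 were not called, with a median log2 fold change of -0.04. Over all tested genes 26.0% were called higher and 27.9% lower. Mme, the neprilysin gene, had 132, 106 and 93.8 CPM in IP, against 45.8, 37.1 and 55.3 CPM in input (1.26, SE 0.18, adjusted p 0.000676 by edgeR). Trhde, the enzyme gene that inactivates Trh, fell by 0.44 (SE 0.15, adjusted p 0.0372), but lost its call without any single library but input replicate 3. Dpp4, a dipeptidyl peptidase gene, fell by 2.16 (SE 0.67, adjusted p 0.0238), a call lost without IP replicate 2 (-2.19, adjusted p 0.0615) or input replicate 2 (-1.95, adjusted p 0.0805). Few reads lie behind it, with 23, 13 and 3 counts in IP replicates 1, 2 and 3, against 48, 77 and 52 in input. Crhbp, the binding protein gene for Crh, had 8.44 to 15.2 CPM in IP and 6.12 to 12.1 CPM in input and was not called.

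Counted per kilobase of merged exon, input levels put Sst first at a mean of 117.6 CPM per kb (range 91.9 to 145). Npy followed at 28.1 (24.5 to 31.4), Avp at 23.3 (5.54 to 56.8), Pmch at 21.1 (14.2 to 33.0), Hcrt at 17.5 (11.4 to 27.0) and Oxt at 15.1 (3.71 to 37.7). Then came Nts at 7.61 (5.57 to 11.2), Gal at 6.25 (3.32 to 11.6), Trh at 1.42 (0.625 to 2.80) and Crh at 0.910 (0.785 to 1.13 CPM per kb). Neighbours in this order overlapped in range except Sst with Npy and Gal with Trh. In IP the order was Sst at 215 (131 to 304), Npy at 26.1 (21.6 to 31.7), Nts at 14.3 (6.95 to 19.5), Pmch at 5.85 (0.0311 to 10.2), Gal at 2.15 (1.63 to 2.51) and Trh at 1.46 (0.725 to 1.85 CPM per kb). Hcrt followed at 0.560 (0.125 to 1.14), Avp at 0.365 (0.0404 to 0.889), Crh at 0.337 (0.166 to 0.616) and Oxt last at 0.149 (0.0434 to 0.267). Only Sst with Npy and Npy with Nts were apart in range there. The input places of Avp and Oxt rested on input replicate 3. In input replicates 1 and 2 Avp had 5.54 and 7.51 CPM per kb and Oxt 3.85 and 3.71, below Pmch at 14.2 and 16.2 and Hcrt at 11.4 and 14.1 CPM per kb.

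Genes with the most similar profile over the 6 libraries were found by the root mean square difference of log2 CPM centred on each gene's mean. For Hcrt, Crym lay at 0.34, with a log2 fold change of -4.50. Oxt was nearest to Cldn2 (0.68) and Calml4 (0.68), and Avp to Cldn2 (0.81) and Kcnj13 (0.84), so both shared a nearest gene. Cldn2 had 0.119, 0.147 and 0 CPM in IP and 1.23, 1.38 and 6.69 CPM in input. Nts was nearest to the receptor genes Gpr83 (0.17) and Grpr (0.19). Gpr83 had 24.5, 33.8 and 10.1 CPM in IP and 8.05, 6.46 and 16.3 CPM in input, the same order of the 3 libraries within each group as for Nts. Pmch had no close match, its nearest genes Gabrd and Pdlim1 both lying at 1.14. The nearest were Pi16 (0.26) and Dmrt3 (0.27) for Trh, Athl1 (0.16) and Trpv3 (0.20) for Crh, Dock11 (0.07) and Smarcb1 (0.08) for Npy, Clic3 (0.20) and Jsrp1 (0.20) for Gal, and Map2k3os (0.11) and Nhlh1 (0.15) for Sst.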

How the data were processed

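RNA of 3 IP and 3 input libraries was analysed from the deposited raw read counts per gene symbol. The submitters' processing notes name STAR 2.0.0e, HTSeq and the mm10 build; which annotation and strand setting HTSeq used is not given in the sources used here. An entry for unknown genes (at most 1 count) and 5 summary lines were left out. Ambiguous reads were 1.59 to 1.68% of all counts in IP and 8.03 to 10.9% in input, which can lower counts of overlapping genes such as Pmch.

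After filterByExpr on the groups (count 10, total 15), 17197 genes stayed. The test was the robust quasi-likelihood F test of edgeR 4.0.16 (R 4.3.3, TMM factors, a two-sided group effect with no covariate, Benjamini-Hochberg threshold 0.05). It was run on simulated counts with far fewer changed genes than the 53.9% called here and no library standing apart. That run therefore does not cover the setting of these data. The SE is the size of the log2 fold change over the square root of F. CPM use TMM-scaled totals, and CPM per kb use merged exons of GENCODE M21, matched by symbol for all 134 listed genes. Alternatives were other scalings and filters, DESeq2 1.42.0, limma-voom (limma 3.58.1), a replicate block, the 0.01 threshold and fits without single libraries or pairs. Leaving out IP replicate 2 with input replicate 3 was added after seeing the data.

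Same-numbered libraries share a lane code in their labels, so the number was taken as a pairing for the pair levels and the replicate block. The main test did not use it, and the labels state no paired design. Deviations from group means correlated at 0.155, 0.0744 and 0.0506 within pairs. Between libraries of unlike number the correlations ran from -0.107 to 0.0207. Named genes were the 10 peptide genes, the 3 most abundant called in each direction of the receptor, processing and granule, binding and breakdown and other hypothalamic lists, and the 2 nearest profiles of each peptide gene, of which 1 is not reported here. Ntsr1, Crhbp, Avpr1b, Avpr2, Galp, Pax7, Hcrtr1, Galr1, Pam, Lhx6, Vip, Htr3a and Cbln1 were named after their values were seen. The peptide genes and the lists were chosen with earlier results of these data known. No replicate was a copy of another (chi-square per degree of freedom 22.0 to 67.4 within groups). Intervals and floors cover counting error only.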

Additional observations from a re-analysis of the deposited data

How the results depend on the processing

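The counts of all genes called were 2847 to 4572 higher and 3561 to 4783 lower when libraries or pairs were left out, against 4467 and 4794 with all, and 2847 higher came without both libraries numbered 1. Of the 10 peptide genes, 4 were lower and 1 higher. The number lower was 2 with limma-voom, 3 at a threshold of 0.01, 5 with upper-quartile scaling or library totals alone, and 3 to 4 when libraries were left out. The number higher was 0 with upper-quartile scaling, library totals alone, no low-count filter, the replicate block or a threshold of 0.01, was 2 with DESeq2, and was 0 to 2 when libraries were left out. Trh reversed to -0.12 under upper-quartile scaling and to -0.10 under library totals, and ranged from -0.50 to 1.32 when libraries were left out. Beside the settings named with it, Sst lost its call under upper-quartile scaling, library totals and no filter (adjusted p 0.0536 to 0.0570), and Nts gained one in DESeq2 (adjusted p 0.0459). Npy ranged from -0.29 to 0.11 with libraries left out, against -0.10. The cause of these shifts was not tested. Over the log2 fold changes of the peptide genes and the called list genes, 425 alternative values kept direction and call, 118 lost the call, 13 gained it and 10 reversed.

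Beyond the values beside the results, the replicate block changed no other call of the peptide genes. Upper-quartile scaling moved the median of all genes to -0.17 and the share of calls that were higher to 38.1%, against -0.01 with TMM, library totals alone to -0.15 and 39.2%, and no low-count filter to -0.22. DESeq2 gave no adjusted p for Oxt. Fits that leave out libraries filter genes afresh. Depth limits Hcrt, Oxt and Avp in IP, where few reads stand behind each fold.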

Other observations

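The calls within the marker lists, given above as sums, were as follows, beside 26.0% higher and 27.9% lower over all tested genes. Of 10 midbrain markers tested 3 were higher in IP, 2 lower and 5 not called. All 4 dopamine neuron markers were lower. Of 8 striatal markers 5 were lower and 3 not called, and of 8 cortical and hippocampal markers 6 were lower, 1 higher and 1 not called. Of 5 genes tested from the cerebellar list 1 was higher, Cbln1, and 4 were not called. Of 4 choroid plexus markers tested 2 were lower and 2 not called. Of 6 pituitary cell genes 1 was tested, Tshb, and it was not called. Their sum was 0.239 to 0.781 CPM in IP and 1.51 to 2.64 CPM in input. Cortical and hippocampal markers summed to 378 to 524 CPM in IP and 895 to 1272 CPM in input.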
